A study of Nasonia vitripennis x Nasonia giraulti with 2 samples.

Results

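CpG methylation was examined at CpGs whose surrounding sequence appears alike in *Nasonia vitripennis* (Nv) and *Nasonia giraulti* (Ng). They were chosen by the share of WGBS-seq reads that could not be assigned to a parental allele. A read is assigned to the V or the G allele when it carries a nucleotide or indel difference between the species, so a CpG with few such differences nearby has many unassigned reads. CpGs listed in both libraries with at least 40% unassigned reads in F1VG and in F1GV are called species-alike CpGs here. There were 240690 of them, 4.35% of the 5531492 CpGs listed in both libraries. They were set against 2958657 contrast CpGs (53.5%) with under 5% unassigned reads in both libraries, while 2332145 CpGs (42.2%) fell in neither class. The sequences themselves were not compared, so likeness between the species rests on the unassigned reads alone.

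The study made 1 WGBS-seq library from each reciprocal hybrid cross, from the whole bodies of 50 pooled adult females collected 24 h after eclosion. F1VG daughters came from Nv females mated to Ng males, and F1GV daughters from Ng females mated to Nv males. Both crosses used the Nv strain AsymCX and the Ng strain R16A, and every female is diploid and carries 1 genome of each species. The libraries held 286833473 counts over 5804802 CpGs in F1VG and 371795018 counts over 6527248 CpGs in F1GV. There were no replicates, so cross and library cannot be told apart. A test between the alleles stays within a library, whereas a test of F1VG against F1GV compares 2 libraries and not the crosses. The 95% Wilson intervals given below cover counting error only and treat CpGs as independent, although neighbouring CpGs share reads and PCR copies are not independent molecules.

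In insects with CpG methylation, the methyl mark is sparse and lies mostly within the coding exons of a subset of genes, many of them broadly expressed. In vertebrates the methyltransferase Dnmt1 copies the mark to the new strand after replication and Dnmt3 enzymes methylate unmarked sites, and the roles of their insect relatives are inferred from this. Methylated cytosines are prone to deamination to thymine, and methylated insect genes are known to have few CpGs for their base composition. Coding exons also tend to change slowly between related species. No gene annotation on the build of these files was used, so CpGs are given by scaffold and position of the Nv v1.0 genome and not by gene.

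The rule used the reads with and without an allele, with methylated and unmethylated counts summed, so the methylation level did not enter it directly. Whether methylation affects how a read is assigned to an allele was not tested. The unassigned share of species-alike CpGs had a median of 51.7% in F1VG, with quartiles of 45.8% and 58.7%. In F1GV the median was 51.9%, with quartiles of 45.9% and 59.2%. In contrast CpGs the median was 0% in both libraries, and 2245520 of them had no unassigned read in either. A CpG is listed only where each allele has 8 reads or more, so a high unassigned share goes with a high total, and the lowest total at a species-alike CpG was 27 reads in each library. Their median total depth was higher, 61 reads in F1VG and 71 in F1GV, against 46 and 56 reads at contrast CpGs. Their median allelic depth was lower, with 13 V and 14 G reads in F1VG and 16 V and 16 G reads in F1GV, against 24 V and 22 G reads in F1VG and 29 V and 27 G reads in F1GV at contrast CpGs. Sequence with too few species differences to give 8 reads per allele is not listed and was not analysed here.

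Species-alike CpGs were methylated more often than contrast CpGs. A level over all reads of both libraries of at least 20%, taken here as methylated, was found at 6778 of 240690 species-alike CpGs (2.82%, 95% Wilson interval 2.75% to 2.88%) and at 15960 of 2958657 contrast CpGs (0.539%, 0.531% to 0.548%). The share was 1.33% in the CpGs of neither class and 0.972% over all shared CpGs. The share of species-alike CpGs was 5.22 times that of contrast CpGs (interval 5.08 to 5.37). Each library alone gave a like picture. In F1VG 2.82% of species-alike CpGs and 0.577% of contrast CpGs reached 20%, and in F1GV 2.86% and 0.552% did. Just inside the limit, where the lower of the 2 unassigned shares was from 40% to 42%, 2.33% of 37483 CpGs were methylated, and just outside it, from 38% to 40%, 2.09% of 35974 were.

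The methylated share was higher in each successive class of unassigned reads but that from 55% to 60% (2.64%), with no step at the limit of 40%. When both libraries fell in the same class, it was 0.412% at CpGs with no unassigned read, 1.07% above 0% and under 5%, 1.15% from 5% to 10%, and 1.85% from 35% to 40%. It was 2.07% from 40% to 45%, 2.85% from 50% to 55%, 3.84% from 60% to 65% and 4.29% (3.68% to 4.99%) at 70% and over. The contrast CpGs with no unassigned read in either library had the lowest share. Without them, 0.940% of contrast CpGs were methylated, and the ratio was 2.99. The median level of the methylated CpGs did not follow the same course, being 65.3% at no unassigned read and from 68.9% to 77.5% in every higher class.

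**Figure D1:**
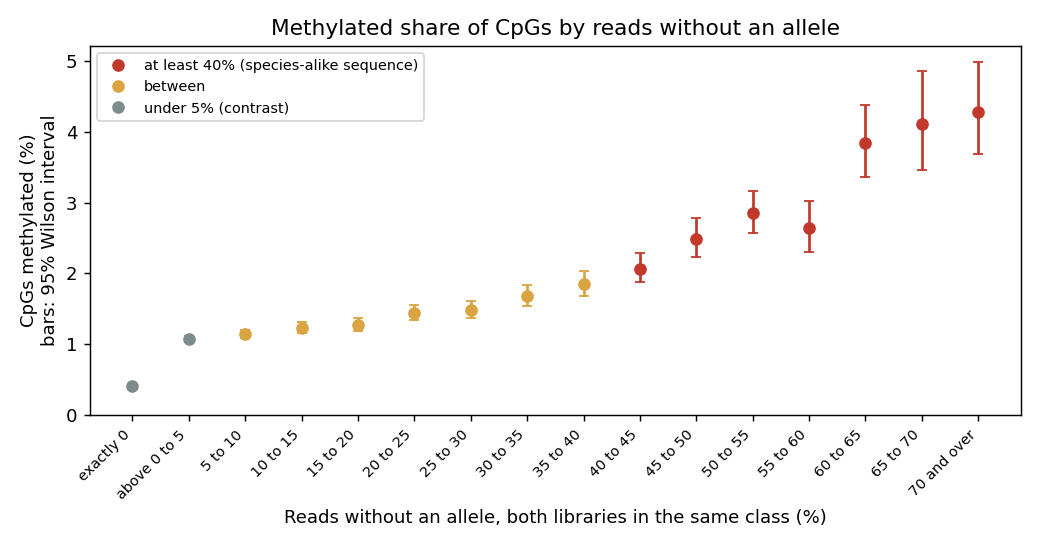
Percentage of CpGs with a pooled level of at least 20% (points, with 95% Wilson intervals) in classes of the percentage of reads without an allele, for CpGs with both libraries in the same class; these classes hold 62468 of the 240690 species-alike CpGs (red). The share lies at 0.412% with no such read and at 4.29% in the class of 70% and over.

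The share was also compared within classes of depth and of CpG spacing. At 32 to 39 V and G reads in both libraries together, 1.97% of species-alike and 0.451% of contrast CpGs were methylated, and at 90 reads and over these shares were 3.05% and 0.579%. In classes of total depth the ratio was between 2.45 and 5.30. Both shares rose with total depth, up to the class that starts at 160 reads of both libraries together. For species-alike CpGs the share was 1.11% in the lowest class, which starts at 54 reads. It was 3.66% in the class from 160 reads and 3.22% at 200 reads and over. For contrast CpGs these shares were 0.455%, 0.768% and 0.609%. CpG spacing went with methylation in both classes. Methylated species-alike CpGs had a median of 4 other listed CpGs within 200 bp (quartiles 2 and 7), against a median of 17 (11 and 24) for all species-alike CpGs. For contrast CpGs these medians were 5 and 20. Where 0 to 4 listed CpGs lay within 200 bp, 26.7% of 13601 species-alike CpGs (26.0% to 27.4%) and 7.39% of 107919 contrast CpGs (7.23% to 7.54%) were methylated. With 10 to 14 such neighbours the shares were 1.24% and 0.396%. With 30 or more, 0 of 24998 species-alike CpGs, which allows a share of up to 0.0120%, and 0 of 508838 contrast CpGs, which allows up to 0.000590%, were methylated. With contrast CpGs weighted to the spacing of species-alike CpGs, the ratio was 3.50. Only listed CpGs were counted as neighbours, and listing itself requires reads of both alleles.

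The difference was also examined within windows of the genome. Windows of 1 kb that held a methylated CpG contained 7.18% of the species-alike CpGs and 1.84% of the contrast CpGs. Within these windows 39.2% of species-alike and 29.4% of contrast CpGs were methylated. The windows were chosen by methylation, that of the compared CpGs included, so these values partly restate the difference in methylated share. In the 63449 windows that held CpGs of both classes, 2.15% of species-alike and 0.664% of contrast CpGs were methylated. With each of these windows weighted equally, however, the shares were 3.73% and 3.16%, a ratio of 1.18. The methylated share was higher among species-alike CpGs in 1772 of these windows, higher among contrast CpGs in 1559, and equal in 60118, of which 1671 held a methylated CpG. In 2346 windows with at least 5 methylated CpGs, also chosen by methylation, the shares with equal weight were 67.6% of species-alike and 59.96% of contrast CpGs. Windows with species-alike CpGs and no contrast CpG numbered 3599, and 17.0% of their 10797 species-alike CpGs were methylated.

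The direction was the same on nearly every large scaffold. Of 76 scaffolds with at least 500 species-alike CpGs, which held 91.0% of them, the methylated share was higher in species-alike than in contrast CpGs on 73, and on 69 the 2 intervals did not overlap. The shares on these scaffolds were from 0% to 6.23% for species-alike CpGs (median 2.42%) and from 0% to 1.95% for contrast CpGs (median 0.433%). SCAFFOLD1, SCAFFOLD2 and SCAFFOLD3 held the most species-alike CpGs. On SCAFFOLD1, 471 of 14927 species-alike CpGs (3.16%) and 959 of 161336 contrast CpGs (0.594%) were methylated. On SCAFFOLD2 the shares were 2.55% of 13428 and 0.512% of 130155, and on SCAFFOLD3 2.57% of 9075 and 0.470% of 103513. The highest share of both classes was found on SCAFFOLD28, with 6.23% of 2697 species-alike CpGs and 1.95% of 22927 contrast CpGs. On 3 scaffolds no species-alike CpG was methylated. These were SCAFFOLD76 (0 of 718, with 2 of 11436 contrast CpGs), SCAFFOLD73 (0 of 549, with 8 of 9152) and SCAFFOLD179 (0 of 524, with 0 of 9083). They were singled out after their values were seen.

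**Figure D2:**
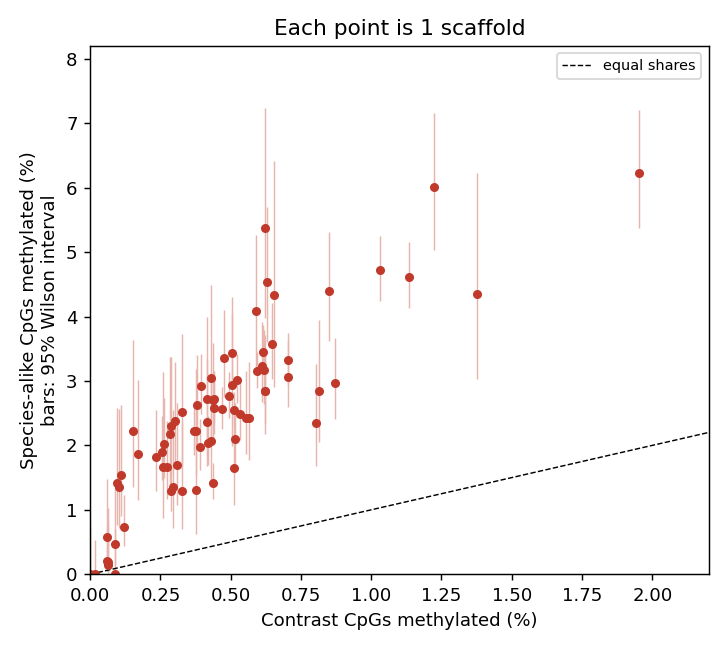
Percentage of species-alike CpGs methylated (vertical axis, with 95% Wilson intervals) against the percentage of contrast CpGs methylated (horizontal axis, to its own scale) on the 76 scaffolds with at least 500 species-alike CpGs. All points but 3 lie above the dashed line of equal shares.

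Species-alike CpGs were spread over 1014 of 2683 scaffolds in 79185 stretches, in which neighbouring members were at most 200 bp apart. A single member made up 26675 stretches. The 2235 stretches with at least 10 members held 26892 CpGs, and in 2211 of them (98.9%) no member was methylated. The 3 stretches with the most members were all without a methylated one. They were SCAFFOLD34 from 212256 to 212906 with 28 members, SCAFFOLD6 from 2105523 to 2106253 with 26, and SCAFFOLD7 from 2076229 to 2076957 with 26, and their mean levels were 1.44%, 1.69% and 1.47%. Stretches with at least 10 members were thus seldom methylated. Their median length was 159 bp, so their CpGs lie close together, and stretches of contrast CpGs were not compared. With 15 to 19 listed CpGs within 200 bp, 0.170% of species-alike and 0.0603% of contrast CpGs were methylated. A methylated member occurred in 4468 stretches (5.64%), and only 78 stretches had 5 or more, with 449 of the 6778 methylated members (6.62%).

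The stretches with the most methylated members showed how levels vary over short distances. SCAFFOLD2 from 6027978 to 6028729 held 23 members, of which 9 were methylated and 14 were not, with a mean level of 26.3% ± 34.5 (SD across CpGs). SCAFFOLD7 from 3492 to 3740 held 9 members, all methylated. There V averaged 84.9% ± 23.3 against 63.2% ± 35.9 for G in F1VG, and 78.9% ± 18.6 against 60.2% ± 36.6 in F1GV. SCAFFOLD2 from 6233192 to 6233523 held 9 members, 8 of them methylated, with V at 65.2% ± 32.9 and G at 70.02% ± 33.7 in F1VG and 62.5% ± 33.8 and 60.2% ± 30.8 in F1GV. In the last 2 stretches reads without an allele were at 77.1% and 59.4% in F1VG and at 74.3% and 61.4% in F1GV. Across the genome, the nearest listed CpG within 100 bp was also methylated for 85.8% of methylated species-alike CpGs (84.9% to 86.7%) and for 84.4% of methylated contrast CpGs (83.8% to 85.0%). For unmethylated CpGs it was methylated for 0.300% of species-alike and 0.0619% of contrast CpGs.

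High levels made up a larger share of the methylated species-alike CpGs than of the methylated contrast CpGs. A pooled level of at least 80% was found at 2873 of the 6778 (42.4%, 41.2% to 43.6%), against 5677 of 15960 methylated contrast CpGs (35.6%, 34.8% to 36.3%). The share was 40.1% in the CpGs of neither class. By unassigned reads, the lower median level was that of CpGs with no such read (65.3%), while contrast CpGs above 0% and under 5% had a median of 75.9%, within the range of the classes from 40% up (72.2% to 77.5%). From 20% to 40% there were 17.4% of the methylated species-alike and 22.5% of the methylated contrast CpGs. In F1VG the mean level over methylated species-alike CpGs was 71.8% ± 27.9 on the V allele (SD across CpGs) and 67.7% ± 31.5 on the G allele, and in F1GV it was 72.1% ± 26.2 and 66.1% ± 29.9. At methylated contrast CpGs these means were 67.0% ± 29.2 and 61.6% ± 33.5 in F1VG and 67.7% ± 27.4 and 59.8% ± 31.8 in F1GV. The mean was thus higher on V, the maternal allele in F1VG and the paternal one in F1GV, in both crosses and both classes. The median of V minus G over methylated species-alike CpGs was 0 percentage points in F1VG (mean 4.11 ± 30.3) and 2.78 in F1GV (mean 6.01 ± 29.1), so the mean difference was small beside the spread across CpGs. Over the species-alike CpGs that were not methylated, the order was the other way round, with 1.74% of V counts and 1.90% of G counts methylated in F1VG and 1.79% and 2.02% in F1GV.

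**Figure D3:**
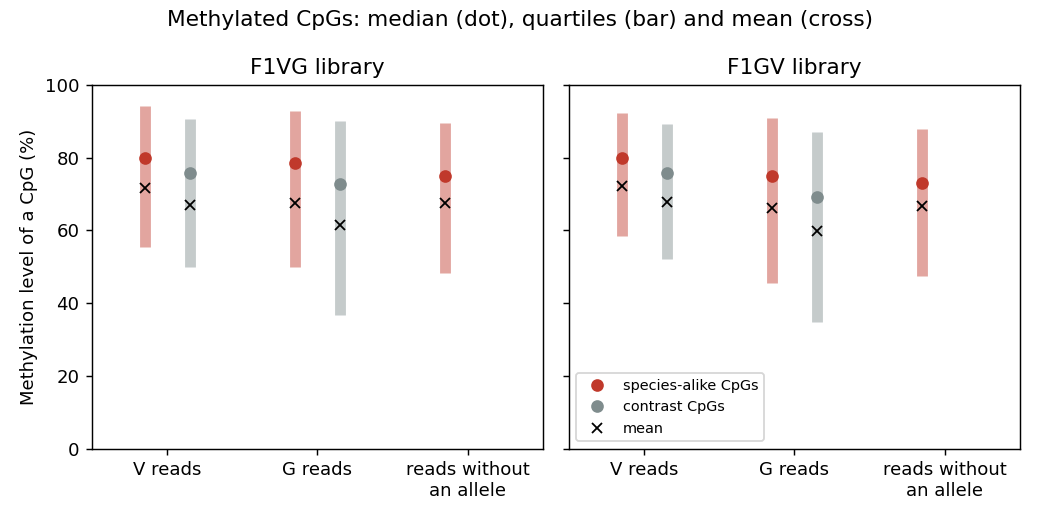
Methylation level of methylated CpGs on V reads, G reads and reads without an allele in F1VG (left) and F1GV (right), with medians (dots), quartiles (bars) and means (crosses) across 6778 species-alike (red) and 15960 contrast CpGs (grey). Contrast CpGs have too few reads without an allele to be shown there. The means of species-alike CpGs are above those of contrast CpGs on both alleles, and the quartiles overlap widely.

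At each CpG, V was tested against G with Fisher's exact test, two-sided, and the p-values were adjusted after Benjamini and Hochberg across the 72225 shared CpGs with a level over V and G reads of at least 10%. Of the species-alike CpGs, 9489 entered this test, and the other members were below that level. An adjusted p under 0.05 was found at 916 of them in F1VG (9.65%, 9.08% to 10.3%) and at 1062 in F1GV (11.2%, 10.6% to 11.8%). Over all tested CpGs the shares were 15.4% in F1VG and 18.1% in F1GV, and at the 22229 tested contrast CpGs they were 19.5% and 23.0%. V was the higher allele at 601 species-alike CpGs and G at 315 in F1VG (6.33% and 3.32% of those tested, against 10% and 5.40% of all tested), and V at 796 and G at 266 in F1GV (8.39% and 2.80%, against 13.1% and 4.97%). Both libraries made a call at 398 species-alike CpGs (4.19%, against 8.34% of all tested). The same allele was the higher one at 384 of them (4.05%, against 8.09%), with V higher at 288 (3.04%, against 5.78%) and G at 96 (1.01%, against 2.31%). Opposite alleles were called at 14 (0.148%, against 0.246%).

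The calls were also counted at like allelic depth. Where the less covered allele had 12 to 15 reads, 11.3% of 2696 species-alike CpGs (10.2% to 12.6%) and 16.7% of 4308 contrast CpGs (15.6% to 17.8%) were called in F1VG. In F1GV these shares were 11.1% of 3117 (10.01% to 12.2%) and 15.3% of 2452 (13.9% to 16.7%). At 16 to 19 reads they were 13.3% and 20.3% in F1VG and 14.0% and 19.5% in F1GV. Overlap of the intervals was found at 20 to 29 reads and at 30 and over in F1VG, and at 8 to 11 reads and at 30 and over in F1GV. Among methylated CpGs, an absolute difference of at least 40 percentage points between the alleles was found at 16.7% of species-alike CpGs in F1VG. It was found at 22.3% of contrast and 18.7% of all shared CpGs there, and at 16.1%, 22.3% and 18.3% in F1GV. The median absolute difference was close in the 2 classes, at 14.3 and 15.1 percentage points in F1VG and 13.6 and 14.2 in F1GV. At called CpGs the median was larger in species-alike than in contrast CpGs, at 64.7 against 59.3 in F1VG and 61.1 against 53.4 in F1GV. The lower share of calls at species-alike CpGs was found only among CpGs that passed the level filter. Without the filter every shared CpG is tested, and 2.82% of species-alike CpGs against 0.972% of all shared CpGs were methylated. Of all species-alike CpGs, 0.107% were then called in F1VG and 0.153% in F1GV, against 0.0885% and 0.123% of all shared CpGs.

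**Figure D4:**
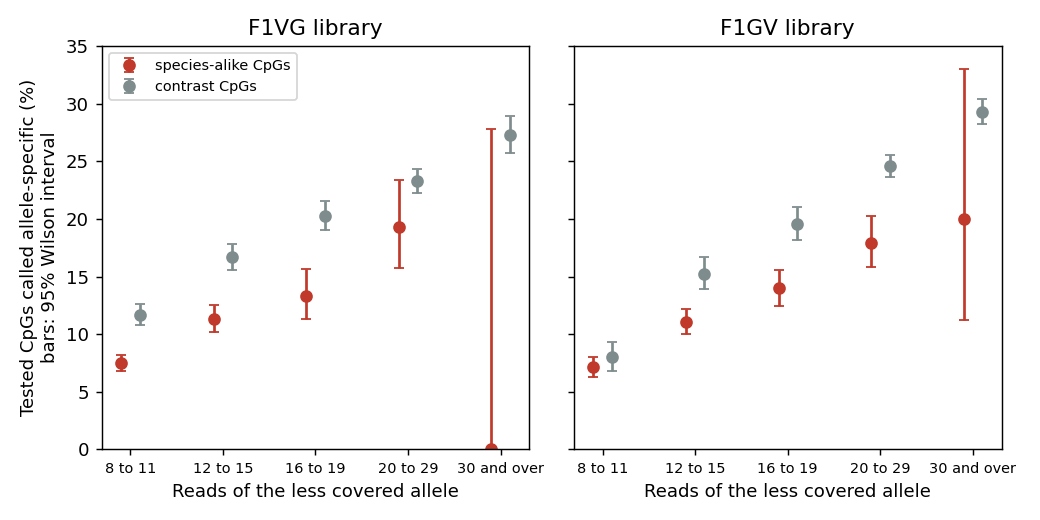
Percentage of tested CpGs called allele-specific, with 95% Wilson intervals, by the number of reads of the less covered allele, in species-alike (red) and contrast CpGs (grey) of F1VG (left) and F1GV (right). From 12 to 19 reads the intervals of the 2 classes are apart in both libraries; at 30 reads and over there were only 10 species-alike CpGs in F1VG and 50 in F1GV.

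At most calls the sign of the allelic difference was the same in the other cross. Of the 916 called in F1VG, 719 (78.5%, 75.7% to 81.0%) had the same allele higher in F1GV, and of the 1062 called in F1GV, 821 (77.3%, 74.7% to 79.7%) had it higher in F1VG. At contrast CpGs these shares were 84.9% and 83.8%, and over all called CpGs they were 82.3% and 81.2%. Species-alike CpGs have fewer reads per allele than contrast CpGs, and these shares were not compared at like depth. At SCAFFOLD16 position 195312 22 of 23 V reads and 1 of 23 G reads were methylated in F1VG, and 23 of 26 V reads and 1 of 24 G reads in F1GV (Fisher's exact test, adjusted p = 1.1e-08 and 2.1e-08). At SCAFFOLD682 position 16469 these counts were 11 of 11 for V and 2 of 38 for G in F1VG, and 21 of 23 and 3 of 34 in F1GV. At SCAFFOLD58 position 565698 they were 26 of 26 and 1 of 13 in F1VG, and 31 of 31 and 2 of 17 in F1GV. At these 3 CpGs, which had the smallest p for a higher V allele, nearly all V reads were methylated and nearly all G reads were not in each library. They were chosen among CpGs with V higher in both libraries, so agreement between the crosses is fixed by the choice. The same holds for the 3 CpGs with G higher in the next paragraph.

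The G allele was the methylated one at SCAFFOLD14 position 432818, with 0 of 18 V reads and 24 of 25 G reads methylated in F1VG and 2 of 29 and 22 of 24 in F1GV (Fisher's exact test, adjusted p = 3.3e-09 and 6.9e-09). At SCAFFOLD654 position 3280, V had 0 methylated reads of 24 and G 21 of 25 in F1VG, and V had 1 of 42 and G 30 of 30 in F1GV. At SCAFFOLD131 position 398303, V had 1 methylated read of 22 and G 20 of 21 in F1VG, and V had 1 of 32 and G 27 of 32 in F1GV. Within 1000 bp of the CpGs on SCAFFOLD14, SCAFFOLD654 and SCAFFOLD131, 4, 7 and 4 other listed CpGs were called with the same allele higher in both libraries, and 1, 9 and 3 were so near the V-higher CpGs on SCAFFOLD16, SCAFFOLD682 and SCAFFOLD58. Runs of at least 4 called species-alike CpGs with at most 1000 bp between them and the same allele higher in both libraries numbered 4 with the V allele higher, with 20 CpGs, and 0 with the G allele higher.

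The 3 runs with the most CpGs are described by their levels, and a difference in both crosses is fixed by how their CpGs were chosen. SCAFFOLD123 from 3033 to 3817 held 6 called species-alike CpGs, with V at 74.8% ± 26.6 and G at 5.77% ± 6.33 in F1VG and at 83.6% ± 9.23 and 4.33% ± 5.78 in F1GV (SD across CpGs). On SCAFFOLD5 from 3371421 to 3372013, with 5, V was at 74.1% ± 7.02 and G at 1.82% ± 4.07 in F1VG, and at 88.7% ± 12.9 and 7.89% ± 8.12 in F1GV. On SCAFFOLD7 from 814300 to 814818, also with 5, V was at 90.5% ± 7.81 and G at 22.4% ± 10.2 in F1VG, and at 95.5% ± 5.16 and 28.8% ± 12.5 in F1GV. All 10 listed CpGs of the region on SCAFFOLD7 were methylated, and 3 of its CpGs that are not species-alike were called in the same direction as well. The run on SCAFFOLD123 had 21 of 34 listed CpGs methylated, and 11 of its CpGs that are not species-alike were called. For the run on SCAFFOLD5 these numbers were 10 of 18 and 5. In all 3 runs reads without an allele had mean levels between those of the alleles, at 22.9%, 34.3% and 39.5% in F1VG and 34.6%, 39.3% and 40.9% in F1GV.

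**Figure D5:**
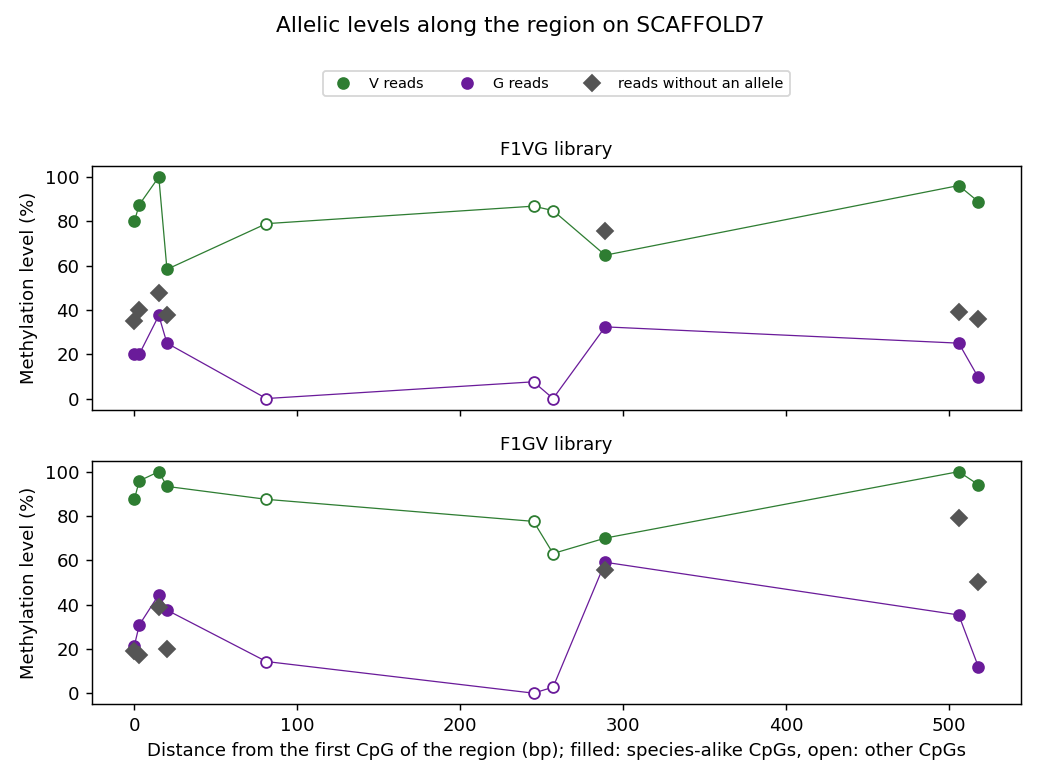
Methylation level of V reads (green), G reads (purple) and reads without an allele (grey diamonds, species-alike CpGs only) by distance in bp along the 519 bp region on SCAFFOLD7, in F1VG (top) and F1GV (bottom). Filled points are the 7 species-alike CpGs and open points the other 3. V is above G at each of the 10 CpGs in both libraries.

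Unassigned reads carry no difference that tells the alleles apart, so they can come from either allele, in proportions that are not known. The 384 species-alike CpGs with the same allele called in both libraries were chosen for a difference between V and G. The level of reads drawn from both alleles was therefore likely to fall between those of V and G. The level of the unassigned reads did so at 372 in F1VG, at 368 in F1GV and at 358 in both. Its median was 40% in F1VG, with quartiles of 26.3% and 51.2%, and 41.4% in F1GV, with quartiles of 29.8% and 51.8%. From the midpoint of V and G it lay a median of -4.04 percentage points away in F1VG and -3.00 in F1GV. Over all 7984 species-alike CpGs with a total level of at least 10%, unassigned minus assigned reads gave a mean difference, with its SD over CpGs, of -2.12 ± 14.8 percentage points for F1VG and -2.39 ± 13.1 for F1GV. They were lower at 4194 and higher at 3538 in F1VG, and lower at 4447 and higher at 3424 in F1GV.

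At single CpGs this difference seldom passed a test. Fisher's exact test of unassigned against assigned reads, adjusted over all 26331 shared CpGs with at least 8 unassigned reads in each library and that level, called 161 species-alike CpGs in F1VG (2.02%, against 2.83% of all tested) and 173 in F1GV (2.17%, against 2.99%). Unassigned reads were the lower ones at 133 of the calls in F1VG (1.67%, against 2.45% of all tested) and at 149 in F1GV (1.87%, against 2.68%). They were the higher ones at 28 in F1VG (0.351%, against 0.372% of all tested) and at 24 in F1GV (0.301%, against 0.308%). Both libraries called 45 CpGs in the same direction (0.564%, against 0.942%). At SCAFFOLD10 position 1336633, 12 of 36 unassigned reads were methylated in F1VG, while V and G had 16 of 17 and 24 of 25 (Fisher's exact test, adjusted p = 3.5e-06). In F1GV this CpG had 5 of 47 unassigned, 3 of 18 V and 39 of 40 G reads methylated (Fisher's exact test, adjusted p = 1.3e-07). At SCAFFOLD21 position 544689, 3 of 27 unassigned reads in F1VG and 2 of 42 in F1GV were methylated, while V had 20 of 21 and 21 of 24, and G 12 of 17 and 10 of 15. At SCAFFOLD5 position 2147529 the unassigned reads had 0 methylated of 23 in F1VG and 0 of 27 in F1GV, while V had 7 of 13 and 9 of 13, and G 13 of 15 and 12 of 21. At these 3 CpGs, which had the smallest p-values, the level of the unassigned reads lay below those of both alleles in each library. Such a level is not that of a mix of the assigned V and G reads, and the reason was not tested.

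Total levels were close between the crosses. The mean difference of F1VG minus F1GV over methylated species-alike CpGs was 0.694 ± 12.8 percentage points (SD across CpGs), and the median absolute difference was 6.56, against 7.69 at methylated contrast CpGs. By Fisher's exact test of all reads, adjusted over 67810 shared CpGs with a pooled level of at least 10%, 978 of 7984 species-alike CpGs differed (12.2%, against 10% of all tested and 8.97% of contrast CpGs), 442 with F1VG higher (5.54%, against 4.61%) and 536 with F1GV higher (6.71%, against 5.40%). Species-alike CpGs have more reads, and at like depth the shares were close. Where the less covered library had 60 to 79 reads, 13.7% of species-alike (12.5% to 14.9%) and 13.1% of contrast CpGs (12.1% to 14.3%) differed, and in the other depth classes the intervals overlapped as well.

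The CpGs with the smallest p in this test had nearly no methylation in one of the libraries. At SCAFFOLD5 position 139512 the methylated reads numbered 0 of 74 in F1VG and 44 of 77 in F1GV (Fisher's exact test, adjusted p = 2.9e-13), and in F1GV these were 26 of 26 V reads, 0 of 12 G reads and 18 of 39 unassigned reads. SCAFFOLD24 position 612252 had 1 methylated read of 108 in F1VG and 47 of 102 in F1GV (exact test, adjusted p = 5.1e-13), again on 21 of 22 V and 2 of 26 G reads in F1GV. SCAFFOLD4 position 2573171 went the other way, with 48 methylated of 86 in F1VG and 1 of 73 in F1GV (exact test, adjusted p = 6.7e-12), and with 3 of 20 V and 17 of 20 G reads methylated in F1VG. At all 3 the methylated allele in the library with methylation was the paternal one. In the other library the paternal allele had no methylated read. These counts were 0 of 15 G reads on SCAFFOLD5 and 0 of 23 G reads on SCAFFOLD24 in F1VG, and 0 of 18 V reads on SCAFFOLD4 in F1GV. The 3 CpGs were picked by their p-values, and whether the other CpGs that differed share this pattern was not tested. Of the other CpGs within 1000 bp that were tested, 1 of 2, 1 of 4 and 1 of 3 were called with the same direction.

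The allele by cross interaction, a likelihood ratio test of whether the allelic difference changes between the libraries, passed at 319 species-alike CpGs (3.36%, 3.02% to 3.74%), against 4.73% of all tested and 5.12% of contrast CpGs. The contrast was toward the maternal allele at 143 (1.51%, against 2.09% of all tested) and toward the paternal allele at 176 (1.85%, against 2.64%). As for the allele-specific calls, the lower share was found only among CpGs that passed the level filter. Without the filter the interaction passed at 0.0120% of all species-alike CpGs, against 0.00842% of all shared CpGs. Between the libraries, Pearson's r of V minus G across methylated CpGs was 0.486 for species-alike and 0.690 for contrast CpGs, which describes CpGs that share libraries and differ in allelic depth, and not replicates.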

How the data were processed

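The 2 WGBS-seq libraries were grouped as F1VG and F1GV by their labels. The authors trimmed and filtered single-end reads (processing notes name CASAVA 1.8.2, FastQC and Trimmomatic), mapped them with BWA against in silico converted Nv and Ng genomes (both v1.0), retained unique hits, and used SNPs and indels to tell the alleles. The authors deposited raw counts for each CpG, as methylated and unmethylated reads in total, on the V allele and on the G allele. Reference bias was, per the paper, corrected for, by a step not given in the sources used here. The sum of V and G reads is larger than the total at 344 shared CpGs of F1VG and 404 of F1GV, which were kept.

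Unassigned reads were all reads minus V and G reads. Wilson intervals, Fisher's exact tests, the likelihood ratio test (1 degree of freedom) and Benjamini-Hochberg adjustment at 0.05 were computed in Python 3.11.15 with SciPy 1.17.1, Numba 0.67.0, pandas 2.3.3 and NumPy 2.4.6, tested on simulated data, and drawn with Matplotlib 3.10.9. Each test ran over all shared CpGs that met its limits. CpGs and regions named are those with the smallest p-values (for 2 libraries, the larger of the pair) or the most members, 3 of each kind. The CpG classes, tests and lists were chosen with earlier results of these data known. The alternatives were other limits for unassigned reads, level, depth, adjusted p and difference, and weightings added after seeing the data. Gene annotation on another build was not used.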

Additional observations from a re-analysis of the deposited data

Results flagged for a closer look

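At 319 species-alike CpGs the interaction test found that the allelic difference was not the same in F1VG and F1GV. These are 2 libraries, so an effect of the cross cannot be told apart from one of the library.

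The likelihood ratio test, which is asymptotic and less sure at few reads than an exact test, gave its smallest p at SCAFFOLD5 position 3334415, with p = 2.1e-12 and an adjusted p of 6.9e-09. There 7 of 31 V reads and 11 of 22 G reads were methylated in F1VG, against 24 of 28 V reads and 0 of 34 G reads in F1GV. Unassigned reads were methylated in 25 of 46 and 19 of 42 cases, and the total level was 43.4% in F1VG and 41.3% in F1GV. Fisher's exact test of V against G within a library gave an adjusted p of 0.19 in F1VG and 2.2e-11 in F1GV.

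At SCAFFOLD22 position 1318332 the same test gave p = 3.4e-12 and an adjusted p of 8.3e-09, and Fisher's exact test within a library gave an adjusted p of 4.6e-05 in F1VG and 0.0012 in F1GV, with opposite alleles higher. In F1VG 8 of 8 V reads, 0 of 15 G reads and 13 of 24 unassigned reads were methylated, and in F1GV 0 of 12 V reads, 12 of 17 G reads and 8 of 30 unassigned reads. At SCAFFOLD24 position 1328474 the likelihood ratio test gave p = 5.4e-11 and an adjusted p of 8.8e-08, and the exact test gave 1.3e-05 in F1VG and 0.005 in F1GV, again with opposite alleles higher. In F1VG 33 of 38 V reads, 0 of 10 G reads and 17 of 35 unassigned reads were methylated, and in F1GV 5 of 25, 14 of 19 and 35 of 55. The contrast was toward the maternal allele on SCAFFOLD22 and SCAFFOLD24 and toward the paternal allele on SCAFFOLD5. Among tested CpGs within 1000 bp, 0 of 11 near the CpG on SCAFFOLD5, 1 of 2 near that on SCAFFOLD22 and 0 of 6 near that on SCAFFOLD24 also had an interaction with the same sign.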

How the results depend on the processing

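The methylated share of species-alike CpGs (2.82%) was 2.41% and 3.25% with limits of 30% and 50% unassigned reads, 3.32% and 2.09% with levels of at least 10% and 50%, 3.004% with 16 reads per allele and library, and 2.62% with a level of at least 20% in each library. The ratio to contrast CpGs (5.22) was above 1 in all 16 alternatives. It was 4.47 and 6.03 with those limits, 4.42 and 5.70 with those levels, and 4.56 with contrast CpGs under 10%. In alternatives chosen after seeing the data it was 2.99 without contrast CpGs at 0 unassigned reads, 4.66 and 6.23 with contrast CpGs weighted by total and by V and G depth, 3.50 weighted by spacing, and 3.24 and 1.18 within windows, pooled and weighted equally.

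Allele-specific calls at species-alike CpGs (9.65% in F1VG and 11.2% in F1GV) were 5.59% and 7.32% at an adjusted p under 0.01 (10.7% and 13.6% of all tested CpGs), 16.3% and 17.2% with 16 reads per allele (21.4% and 23.0%), and 0.107% and 0.153% without the level filter (0.0885% and 0.123%). The interaction (3.36%) was 0.938% at an adjusted p under 0.01 (1.71% of all tested), 5.79% with 16 reads (7.12%), 12.6% by a z test of percentages (14.3%), and 0.0120% with no level filter (0.00842%). Without that filter all shared CpGs are tested, methylated or not. The order of species-alike and all tested CpGs was then reversed for the calls in both libraries and for the interaction. At an adjusted p under 0.01, the difference between F1VG and F1GV (12.2%) was 7.46% (5.49% of all tested), and that between unassigned and assigned reads (2.02% and 2.17%) was 0.914% and 0.977% (1.37% and 1.53%). The cause of these shifts was not tested. The other 18 values stayed within their limits. No paired analysis was possible because each cross has 1 library, and for the same reason no replicate could be left out. The median of 13 to 16 reads per allele at species-alike CpGs limits the allelic tests.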
